A study of Mus musculus with 8 samples.

Results

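The genes described here encode 40 subunits of BAF (with its PBAF and BRD9-containing forms) and of NuRD, the chromatin remodelling complexes to which the transcription factor Bcl11a is known to bind. They were taken from a list of 26 BAF and 14 NuRD subunit genes by exact gene symbol, each represented by its brightest probe set. All 40 were measured, among 19938 genes on the array. The tissue was neocortex of mouse pups at postnatal day 2, from which layers II to IV were cut by laser, with 1 Affymetrix Mouse Gene 1.0 ST array per pup. Mutant pups (n = 4) were Bcl11a flox/flox;Emx1 IRESCre/+ and control pups (n = 4) were Bcl11a flox/+;Emx1 IRESCre/+, so that every animal carried Cre and the controls had lost 1 allele of Bcl11a in the Emx1 lineage. Cells of that lineage become cortical projection neurons and many glia, whereas interneurons, microglia and vessel cells arise elsewhere and keep their Bcl11a alleles.

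BAF slides and evicts nucleosomes with an ATPase motor, and is built from a common core and exchangeable subunits that direct it to its sites. When cortical progenitors become neurons, several of its subunits are replaced by neuronal paralogues. NuRD joins a CHD-family ATPase to histone deacetylases and to proteins that bind methylated DNA, and is known chiefly as a repressor; its CHD subunits have been described as exchanging during cortical development. Bcl11a belongs to a family of zinc finger factors found with both complexes.

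Values are taken as log2 expression, although the base of the logarithm is not given in the sources used here and every fold rests on it. On that scale a difference of 0.25 is 1.19-fold and one of 0.5 is 1.41-fold. Differences are mutant minus control, tested with limma, and a gene is said to have risen or fallen where its p, adjusted over all 19938 genes by the Benjamini-Hochberg method, was under 0.05. Array medians lay between 4.83 and 4.91, and no pair of arrays was identical. Control 1 had the lowest array weight, at 0.556. Bcl11a read 8.56, 8.85, 8.37 and 8.75 in mutants 1 to 4, against 10.59, 10.52, 10.34 and 10.34 in controls 1 to 4, a log2 difference of -1.82 (SE 0.10, adjusted p = 4.9e-07). Xist, from which sex was inferred, was high in 1 of the 4 mutants (mutant 3) and 2 of the 4 controls (controls 1 and 3). The highest reading of Y-linked genes in arrays with high Xist, 4.31, served as an empirical floor. All 7 measured markers of upper layers and all 6 of deep layers had means above it. None of the deep-layer markers passed the test, though 5 had differences above 0 and 1 below. Fezf2 differed most, by 0.80 (adjusted p = 0.105). The log2 of the summed intensity of the deep-layer markers ran from 10.779 to 10.989 in mutants and from 10.371 to 10.772 in controls. The part of this in the subunit values was not tested. Of 8 microglial markers, 5 lay at or below the floor. All 40 subunit genes lay above it, the lowest being Smarcd2 at 4.77.

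Most subunits differed little between the genotypes. Of the 40 genes, 1 fell, 0 rose and 39 did not pass the test. Over all genes 4.15% were called, 1.79% as lower and 2.36% as higher in the mutant. The gene that fell was Chd3, a NuRD ATPase. By limma's unadjusted p, 9 of the 40 were under 0.05 (22.5%, against 14% of all genes), 5 higher and 4 lower in the mutant. The values of the groups did not overlap for 7 of the 40 (17.5%, against 9.25% of all genes). Of these, Smarca2, Mta2 and Dpf3 were higher in the mutant and Chd3, Arid1b, Arid1a and Smarca4 lower, where 5.46% and 3.79% of all genes were so in each direction. The shares of all genes, here and below, include 6290 genes at or below the floor, where no subunit lay. The part of expression level in the gap between these shares was not tested. The median log2 difference was 0.03 over the subunits and 0.02 over all genes, and the median absolute difference was 0.08 and 0.07.

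The precision was enough to bound most of these differences. The 95% interval lay within 0.5 of 0 on the log2 scale for 39 of the 40 subunits, all but Smarca2, and within 0.25 of 0 for 21. Of all 19938 genes, 18840 and 10901 had intervals within the same limits. The median half-width of the interval was 0.155 for the subunits and 0.166 for all genes. In bulk tissue, fewer cells of a type and less RNA per cell cannot be told apart.

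**Figure D1:**
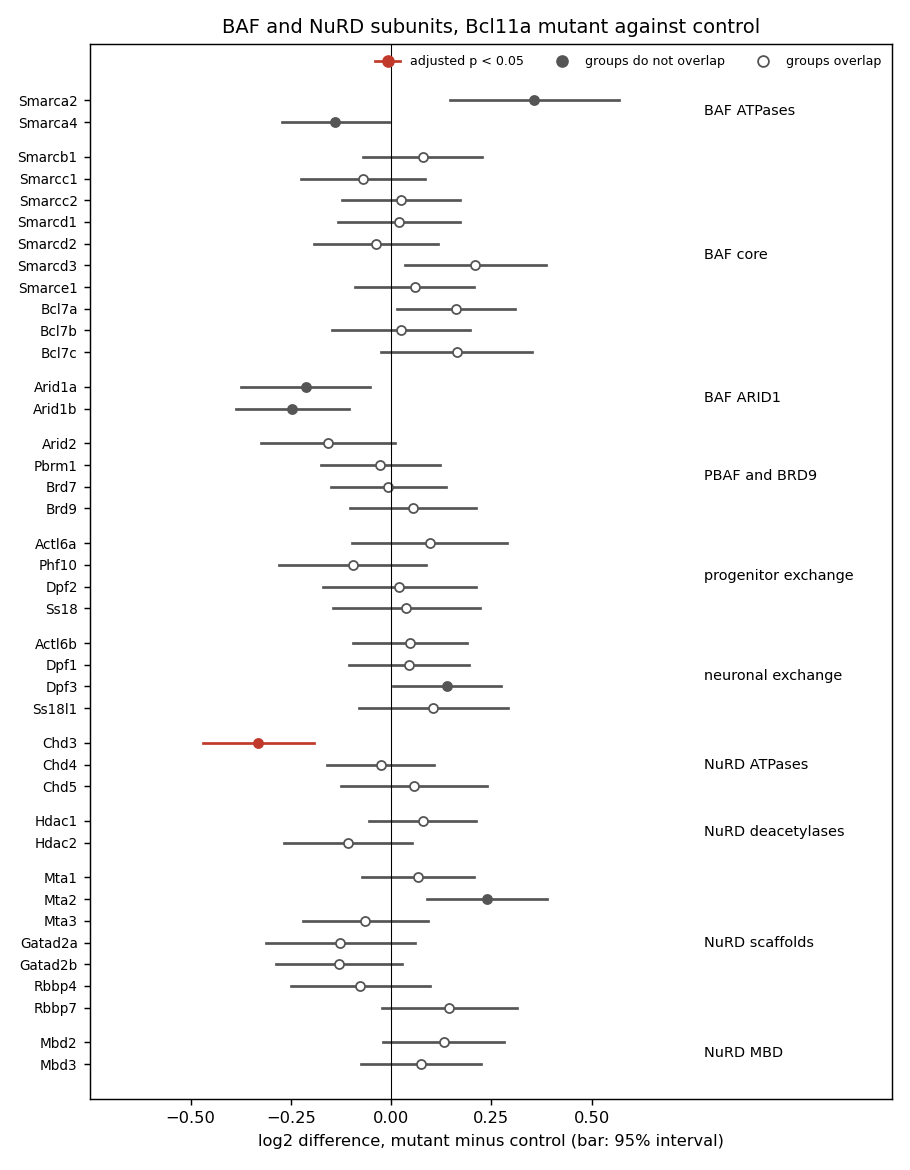
Log2 difference, mutant minus control, of each of the 40 subunit genes by role, with its 95% interval (n = 4 pups a group). The Chd3 interval, in red, is the only one of a gene that passed the test, filled points mark the 7 genes whose groups did not overlap, and Smarca2 alone has an interval that runs past 0.5.

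Among the NuRD ATPases, which are used by the complex as alternatives, Chd3 fell and its paralogues did not pass the test. Chd3 read 9.55, 9.42, 9.39 and 9.48 in the mutants, against 9.73, 9.84, 9.78 and 9.81 in the controls. Every mutant lay below every control. The mean was 9.46 ± 0.07 in mutants and 9.79 ± 0.05 in controls (SD, n = 4), a log2 difference of -0.33 (SE 0.06, 95% interval -0.47 to -0.19, adjusted p = 0.00836). The mutant level was thus 0.795 of the control level, with an interval of 0.723 to 0.875. The exact two-sided permutation p was 0.0286, the smallest that 4 arrays against 4 can give. Any gene whose groups do not overlap has this value. Of all genes, 95.6% had a smaller absolute difference. The call of Chd3 was kept in each of 19 alternative fits, with adjusted p from 0.00213 to 0.0358 and log2 differences from -0.36 to -0.31.

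Chd4, the NuRD ATPase best known from dividing cells, read 9.44, 9.50, 9.46 and 9.34 in mutants, against 9.44, 9.49, 9.49 and 9.42 in controls. The groups overlapped almost entirely, with a log2 difference of -0.03 (95% interval -0.16 to 0.11, adjusted p = 0.924). Chd5, the ATPase known for its expression in neurons, read 8.91, 9.03, 8.94 and 8.80 in mutants, against 8.62, 8.94, 8.96 and 8.93 in controls. Control 1 was the lowest array for this gene, and the difference was 0.06 (95% interval -0.13 to 0.24, adjusted p = 0.861). Taken within each array and centred on the control mean, Chd3 minus Chd4 was -0.22, -0.41, -0.40 and -0.18 in the mutants, against -0.04, 0.02, -0.04 and 0.07 in the controls. Chd3 minus Chd5 was likewise below every control in every mutant, with means of -0.39 ± 0.14 in mutants and 0 ± 0.12 in controls (SD, n = 4). These pairs were singled out after the values were seen, and the within-array difference is a description without a test.

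The arrays in which Chd3 was low also differed in markers of cell types. Of 12 interneuron markers, 2 fell, Npy (difference -1.63) and Dlx1 (-0.46). In all, 10 of the 12 had differences below 0 and 2 above. Calb2 went the other way, with every mutant above every control, but did not pass (difference 0.86, adjusted p = 0.122). The log2 of the summed intensity of the 12 ran from 10.87 to 10.91 in mutants and from 11.21 to 11.28 in controls. Such a sum is weighted to the brighter genes, and Npy (8.76) and Dlx1 (8.74) had the highest control means of the 12. Of 11 general neuronal markers 3 fell (Rbfox3, Snap25 and Slc17a6) and 8 did not pass. Among those 8, Map2, Tubb3 and Stmn2 had differences of -0.01, 0.00 and 0.04. Others of the 8 were further from 0. Syt1 differed by -0.26, with every mutant below every control (adjusted p = 0.0606), and Nefl by 0.24 with overlap (adjusted p = 0.454). In all, 7 of the 11 had differences below 0 and 4 above. Of 7 upper-layer markers 5 fell and 1, Lmo4, rose. None of the interneuron, neuronal or upper-layer markers was at or below the floor. Their part in the difference of Chd3 was not tested.

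The partners of the ATPases within NuRD did not pass the test. Mta2, a scaffold that ties the deacetylases into the complex, came nearest. It read 8.93, 8.87, 8.85 and 8.82 in mutants, against 8.72, 8.72, 8.50 and 8.57 in controls. Every mutant was above every control, but the adjusted p was 0.0812 for a log2 difference of 0.24 (SE 0.07, 95% interval 0.09 to 0.39), which is 1.18-fold. The other MTA scaffolds overlapped between the groups: Mta1 averaged 9.08 ± 0.06 in mutants and 9.01 ± 0.07 in controls, and Mta3 8.87 ± 0.12 in mutants and 8.94 ± 0.06 in controls (SD, n = 4). A dimmer second probe set of Mta3 differed in sign from the one used, at 0.11 against -0.06, and neither passed.

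The deacetylases themselves, Hdac1 and Hdac2, which also serve other corepressor complexes, leaned in opposite directions by less than the test could tell from 0. Hdac1 averaged 8.0 ± 0.06 in mutants and 7.92 ± 0.06 in controls, and Hdac2 averaged 10.32 ± 0.09 in mutants and 10.43 ± 0.11 in controls (SD, n = 4). Their 95% intervals were -0.06 to 0.21 for Hdac1 and -0.27 to 0.05 for Hdac2. The histone-binding proteins Rbbp4 and Rbbp7, shared with other chromatin complexes, had log2 differences of -0.08 and 0.15. The second probe set of Rbbp7 gave 0.22, with an adjusted p of 0.18 over all probe sets.

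Gatad2a and Gatad2b, which link the methyl-binding subunit to the ATPase, had log2 differences of -0.13 each (95% intervals -0.31 to 0.06 and -0.29 to 0.03), with overlapping groups. Mbd2, which binds methylated CpG, averaged 7.96 ± 0.09 in mutants and 7.83 ± 0.08 in controls (SD, n = 4, difference 0.13). Its relative Mbd3, which forms a NuRD of its own and binds methylated DNA poorly in mammals, averaged 8.59 ± 0.11 in mutants and 8.51 ± 0.04 in controls (SD, n = 4). By the brightest probe set of each gene, no adjusted p of these partners other than Mta2 was under 0.4.

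Of the 26 BAF and PBAF subunits, limma called 0, against 4.15% of all genes, while 7 had an unadjusted p under 0.05 (26.9%, against 14% of all genes). The largest difference was that of Smarca2, the ATPase also called Brm. It read 10.42, 10.90, 10.86 and 10.64 in mutants, against 10.30, 10.27, 10.41 and 10.41 in controls. Mutant 1 lay only just above controls 3 and 4, while mutants 2 and 3 stood well above them. The log2 difference was 0.36 (SE 0.10, 95% interval 0.15 to 0.57, adjusted p = 0.0628), or 1.28-fold. Without mutant 1, the mutant nearest the controls, the gene rose, with a difference of 0.45 and an adjusted p of 0.00765. With any other array left out it did not pass, with an adjusted p of up to 0.199. Over the removal of each array in turn, the difference lay between 0.29 and 0.45.

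Smarca4, the alternative ATPase Brg1, lay on the other side of 0. It read 9.28, 9.43, 9.33 and 9.38 in mutants, against 9.45, 9.49, 9.51 and 9.52 in controls. Mutant 2 lay just below control 1, so that the groups were only just apart. The difference was -0.14 (SE 0.06, 95% interval -0.27 to -0.01, adjusted p = 0.328). Within each array and centred on the control mean, Smarca2 minus Smarca4 was 0.29, 0.62, 0.68 and 0.40 in mutants, against -0.00, -0.07, 0.05 and 0.03 in controls. Every mutant was above every control, for a mean of 0.50 ± 0.18 in mutants and 0 ± 0.05 in controls (SD, n = 4). That separation follows from the single genes, since Smarca2 was higher and Smarca4 lower in the mutants, both without overlap. This pair too was singled out after the values were seen and was not tested. Of the 16 paralogue pairs for which this difference was computed, it and both Chd3 pairs were the 3 without overlap.

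The ATPase genes are shown with their promoters because they encode interchangeable motors and leaned in opposite directions. Each sequence is the RefSeq window of GRCm38.p6 from 250 bases before to 50 after the annotated start, 5′ to 3′ on the gene's strand, with CG dinucleotides in capitals. Smarca2 is at chr19:26604910-26605209 (plus strand) and Smarca4 at chr9:21615919-21616218 (plus strand).
Smarca2: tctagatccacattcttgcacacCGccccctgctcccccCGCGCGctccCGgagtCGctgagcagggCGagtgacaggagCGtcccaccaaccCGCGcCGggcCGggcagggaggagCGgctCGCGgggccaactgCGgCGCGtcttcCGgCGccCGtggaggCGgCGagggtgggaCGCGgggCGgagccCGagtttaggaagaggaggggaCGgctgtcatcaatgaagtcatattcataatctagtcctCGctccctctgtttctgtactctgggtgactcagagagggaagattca
Smarca4: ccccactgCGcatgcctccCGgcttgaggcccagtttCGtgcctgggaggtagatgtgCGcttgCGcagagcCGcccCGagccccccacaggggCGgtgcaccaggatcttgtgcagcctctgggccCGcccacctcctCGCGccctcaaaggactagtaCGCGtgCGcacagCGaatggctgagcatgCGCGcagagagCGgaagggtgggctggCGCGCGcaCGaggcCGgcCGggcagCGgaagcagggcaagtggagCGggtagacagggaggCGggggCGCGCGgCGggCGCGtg
The Smarca2 window was 65.7% G or C with 29 CG dinucleotides, and the Smarca4 window 72.3% with 33.

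Such composition was common among the subunit genes. RefSeq windows were at hand for 32 of the 40, with 38 windows in all; Chd3, Arid2, Bcl7a, Hdac1, Smarce1, Ss18, Mbd2 and Mta3 had none in the table used here. The median was 69.2% G or C and 32.5 CG dinucleotides for the subunits. It was 52.7% and 7 over all 32851 windows, which belong to 27025 RefSeq genes and not to the array's gene set. The letters TGACCA, a motif described for human BCL11A at the globin promoters, were searched on both strands. They occurred in 1 of the 38 subunit windows (2.63%), against 13.6% of all windows. That window belongs to Smarcd1, a core subunit, at chr15:99702037-99702336 (plus strand), where the match is on the other strand from base 107 and is in capitals.
Smarcd1: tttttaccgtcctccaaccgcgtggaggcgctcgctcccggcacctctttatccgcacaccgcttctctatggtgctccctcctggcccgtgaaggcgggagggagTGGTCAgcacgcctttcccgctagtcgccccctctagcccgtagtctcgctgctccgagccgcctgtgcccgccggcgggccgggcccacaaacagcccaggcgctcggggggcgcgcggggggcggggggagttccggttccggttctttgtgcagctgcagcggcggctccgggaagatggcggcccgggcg
Smarcd1 averaged 8.99 ± 0.05 in mutants and 8.97 ± 0.12 in controls (SD, n = 4), a log2 difference of 0.02 (95% interval -0.13 to 0.17). A match of letters is a description of the window and not a binding site. The subunit windows were richer in G or C than all windows, and the part of that in their lower share of matches was not tested.

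**Figure D2:**
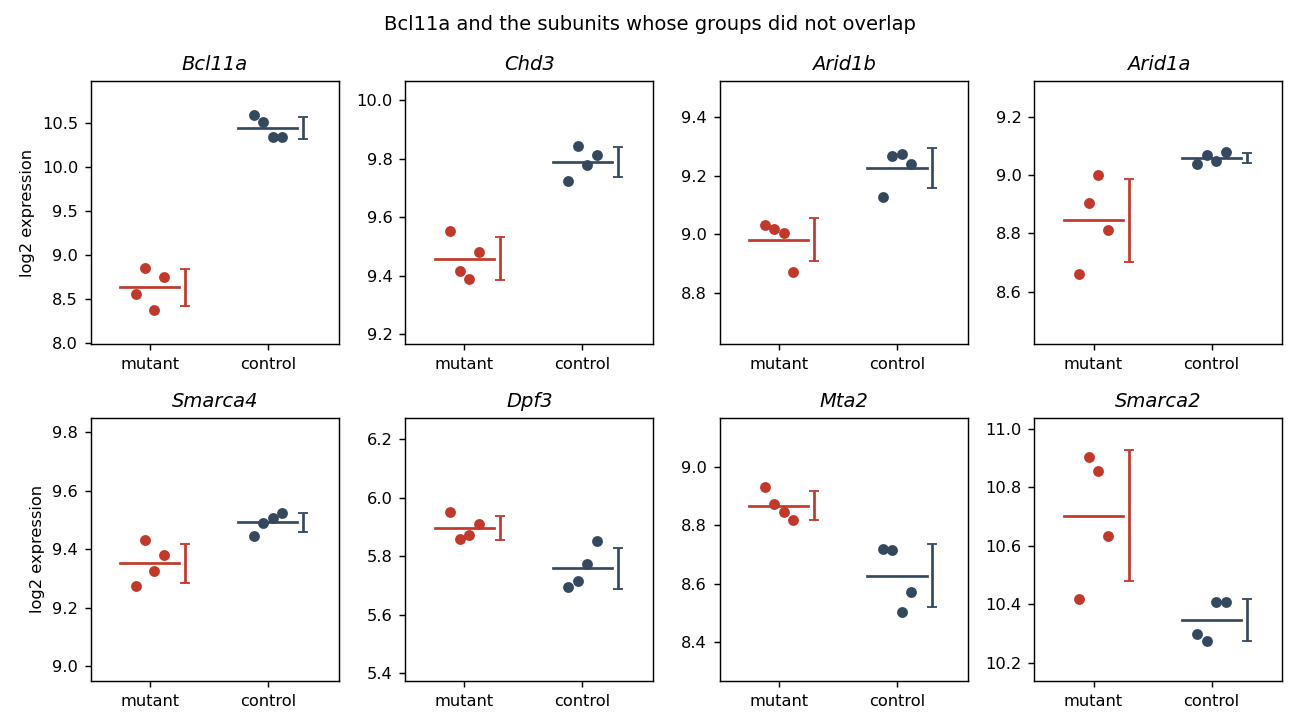
Log2 expression of Bcl11a and of the 7 subunit genes whose groups did not overlap, 1 point per pup, with the mean (line) and SD (bar, n = 4), mutants left of controls. The Bcl11a axis spans a wider range than the others, and the gap between the groups is widest for Chd3 among the subunits (mutants up to 9.55, controls from 9.73).

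The ARID subunits, large proteins that bind DNA and define which form of the complex is assembled, were all lower on the mean in the mutant, without passing the test. Arid1b, of canonical BAF, read 9.03, 9.02, 9.0 and 8.87 in mutants, against 9.13, 9.27, 9.28 and 9.24 in controls. The groups did not overlap, and the difference was -0.25 (SE 0.07, 95% interval -0.39 to -0.10, adjusted p = 0.057). Without control 1, the control nearest the mutants, Arid1b fell, with a difference of -0.28 and an adjusted p of 0.0349. With any other array left out it did not pass. The adjusted p was then up to 0.162 and the difference as small as -0.21. Arid1a, its alternative, read 8.66, 8.90, 9.0 and 8.81 in mutants, against 9.04, 9.07, 9.05 and 9.08 in controls. Mutants were lower and more spread, with an SD of 0.14 in mutants and 0.02 in controls. The difference was -0.21 (SE 0.07, 95% interval -0.37 to -0.05, adjusted p = 0.171). Arid1a minus Arid1b within an array averaged 0.03 ± 0.16 in mutants and 0 ± 0.06 in controls after centring (SD, n = 4), and the groups overlapped.

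Arid2, which defines PBAF, read 8.38, 8.37, 8.49 and 8.14 in mutants, against 8.54, 8.52, 8.52 and 8.43 in controls. Mutant 3 lay above control 4, so the groups overlapped (difference -0.16, 95% interval -0.32 to 0.01, adjusted p = 0.394). The other PBAF subunits were close to 0: the bromodomain proteins Pbrm1 and Brd7 had differences of -0.03 and -0.01, and Brd9, of a non-canonical BAF, 0.05. Their 95% intervals were -0.18 to 0.12 for Pbrm1, -0.15 to 0.14 for Brd7 and -0.10 to 0.21 for Brd9. A second probe set of Pbrm1 gave -0.13 (unadjusted p = 0.046, adjusted p = 0.467 over all probe sets).

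The subunits exchanged between progenitor and neuronal BAF did not pass the test on either side. Of the progenitor forms, the actin-related Actl6a read 6.69, 6.32, 6.50 and 6.48 in mutants, against 6.22, 6.49, 6.53 and 6.37 in controls. Its neuronal replacement Actl6b read 8.86, 8.89, 8.81 and 8.77 in mutants, against 8.79, 8.88, 8.67 and 8.80 in controls. The groups overlapped for both, with differences of 0.10 for Actl6a (95% interval -0.10 to 0.29) and 0.05 for Actl6b (-0.09 to 0.19). Within an array, Actl6b minus Actl6a averaged -0.05 ± 0.16 in mutants and 0 ± 0.18 in controls after centring (SD, n = 4).

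Phf10, a PHD-finger subunit of progenitors, read 7.42, 7.24, 7.31 and 7.21 in mutants, against 7.23, 7.28, 7.56 and 7.5 in controls. Dpf2, a further PHD-finger subunit on the progenitor side, read 6.92, 7.14, 7.32 and 7.35 in mutants, against 7.21, 7.11, 7.14 and 7.19 in controls, and was more spread among mutants. Neither group stood apart, and the differences were -0.10 for Phf10 (95% interval -0.28 to 0.09) and 0.02 for Dpf2 (-0.17 to 0.21). Dpf1, a neuronal replacement, read 8.24, 8.33, 8.16 and 8.14 in mutants, against 8.27, 8.21, 8.08 and 8.13 in controls. It differed by 0.04 (95% interval -0.11 to 0.19), with overlapping groups. Dpf3, the other, read 5.95, 5.86, 5.87 and 5.91 in mutants, against 5.70, 5.71, 5.77 and 5.85 in controls. All mutants lay above control 4, the highest control, though mutants 2 and 3 by very little, and the difference of 0.14 did not pass (95% interval 0.00 to 0.27, adjusted p = 0.339).

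Ss18, which joins the progenitor complex, read 6.27, 6.44, 6.21 and 6.30 in mutants, against 6.43, 6.05, 6.28 and 6.31 in controls. Ss18l1, the calcium-responsive coactivator known as Crest that takes its place in neurons, read 9.05, 9.13, 9.19 and 8.79 in mutants, against 8.91, 9.04, 8.91 and 8.87 in controls. Mutant 4 was the lowest array of all for Ss18l1 while the other mutants were the highest, and the differences were 0.04 for Ss18 (95% interval -0.15 to 0.22) and 0.11 for Ss18l1 (-0.08 to 0.29). All 4 neuronal subunits and 3 of the 4 progenitor subunits had differences above 0 (Dpf2 lay just below 0 after quantile normalisation or median centring), as did 57.5% of all genes. Over the removal of each array in turn, the lowest differences were -0.035 for Dpf2 and -0.034 for Ss18. In the fit reported, all 8 intervals lay within 0.5 of 0. In the same arrays 13 progenitor and cell-cycle markers were measured together. Of these 1 fell, Vim (difference -0.36, adjusted p = 0.0225), while 7 of the 13 had differences above 0 and 6 below. The log2 of their summed intensity ran from 10.19 to 10.43 in mutants and from 10.31 to 10.52 in controls, with Eomes below the floor. The part of progenitors or dividing cells in the subunit values was not tested.

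**Figure D3:**
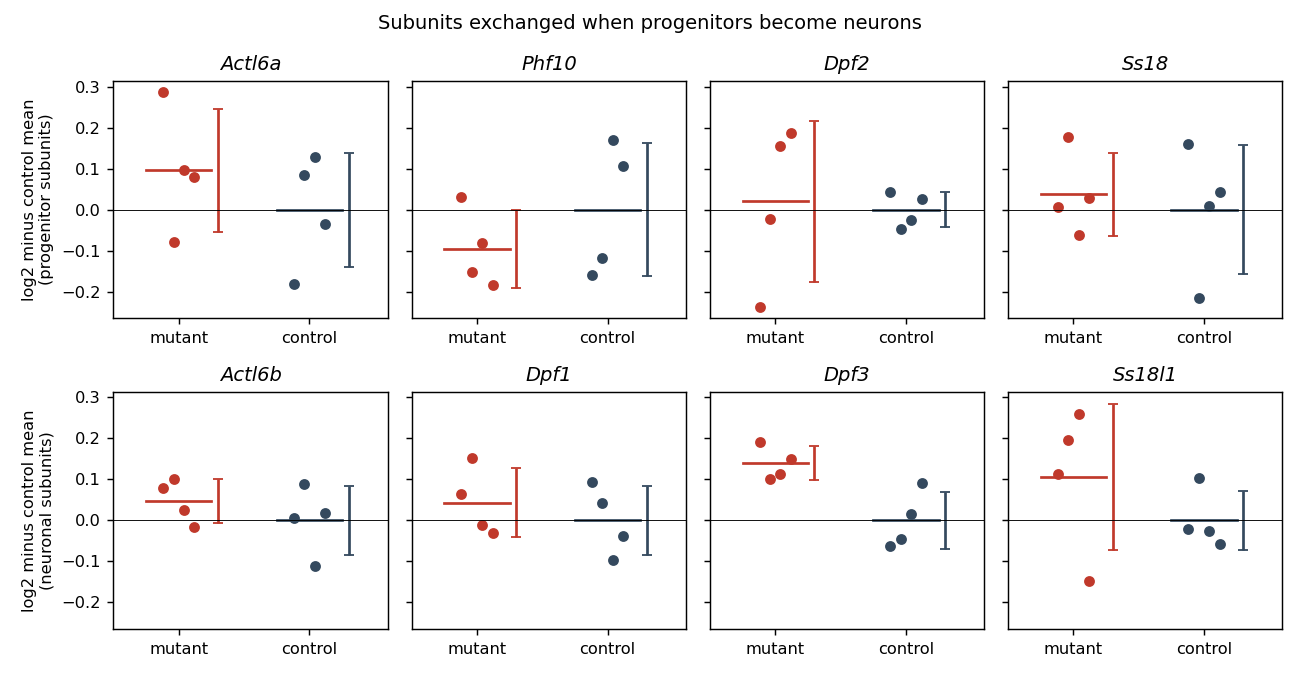
Log2 expression of the 8 exchanged BAF subunits minus the control mean of each gene, 1 point per pup with the mean (line) and SD (bar, n = 4), progenitor forms above and neuronal forms below. Mutants and controls overlap for every gene but Dpf3, whose mutants lie 0.14 above the controls on the mean.

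The subunits listed here as core were mostly within 0.1 of 0. Smarcd3, the BAF60 paralogue known from heart and neurons, had the largest difference of the core. It read 8.68, 8.76, 8.52 and 8.74 in mutants, against 8.29, 8.58, 8.43 and 8.55 in controls. The groups overlapped through mutant 3, and the difference of 0.21 did not pass (95% interval 0.03 to 0.39, adjusted p = 0.235). Its paralogues Smarcd1 and Smarcd2 had differences of 0.02 and -0.04.

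The BCL7 proteins, small subunits first found through a gene of B-cell lymphoma, were all higher on the mean without passing. Bcl7a read 9.11, 9.31, 9.20 and 9.18 in mutants, against 8.97, 9.15, 9.03 and 9.0 in controls, and mutant 1 lay below control 2. Its difference was 0.16 (95% interval 0.02 to 0.31, adjusted p = 0.289). Bcl7c read 7.36, 7.06, 7.20 and 7.05 in mutants, against 6.95, 6.87, 7.01 and 7.18 in controls, with mutants 2 and 4 below control 4 (difference 0.16, 95% interval -0.03 to 0.35, adjusted p = 0.451). Bcl7b differed by 0.02.

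The scaffold pair Smarcc1 and Smarcc2, whose ratio is known to change during cortical development, averaged 9.60 ± 0.10 and 10.64 ± 0.09 in mutants, against 9.67 ± 0.08 and 10.62 ± 0.07 in controls (SD, n = 4). Within an array Smarcc1 minus Smarcc2 averaged -0.09 ± 0.08 in mutants and 0 ± 0.13 in controls after centring, with overlap. Smarcb1, a core subunit that contacts the nucleosome, averaged 9.37 ± 0.06 in mutants and 9.29 ± 0.10 in controls (SD, n = 4). Smarce1, an HMG-box subunit, averaged 9.42 ± 0.09 in mutants and 9.37 ± 0.07 in controls (SD, n = 4). Its further probe sets gave differences of 0.10 and 0.13, beside 0.06 for the brightest. Of the 5 subunit genes with several probe sets, Mta3 alone had probe sets that differed in sign.

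The subunits did not vary evenly across arrays. Mutant 4 was the lowest of its group for 19 of the 40 genes (47.5%), where it was so for 30% of all genes. Control 1 was the lowest control for 16 (40%), against 27% of all genes. Relative to the mean of its group, the median subunit deviated by -0.06 in mutant 4 and by -0.03 in control 1, and the median gene by -0.02 in mutant 4 and by 0.01 in control 1. Without mutant 4 the median difference over the subunits was 0.04, and without control 1 it was 0.02. Chd3 remained called in both cases (adjusted p = 0.0233 and 0.00932).

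**Figure D4:**
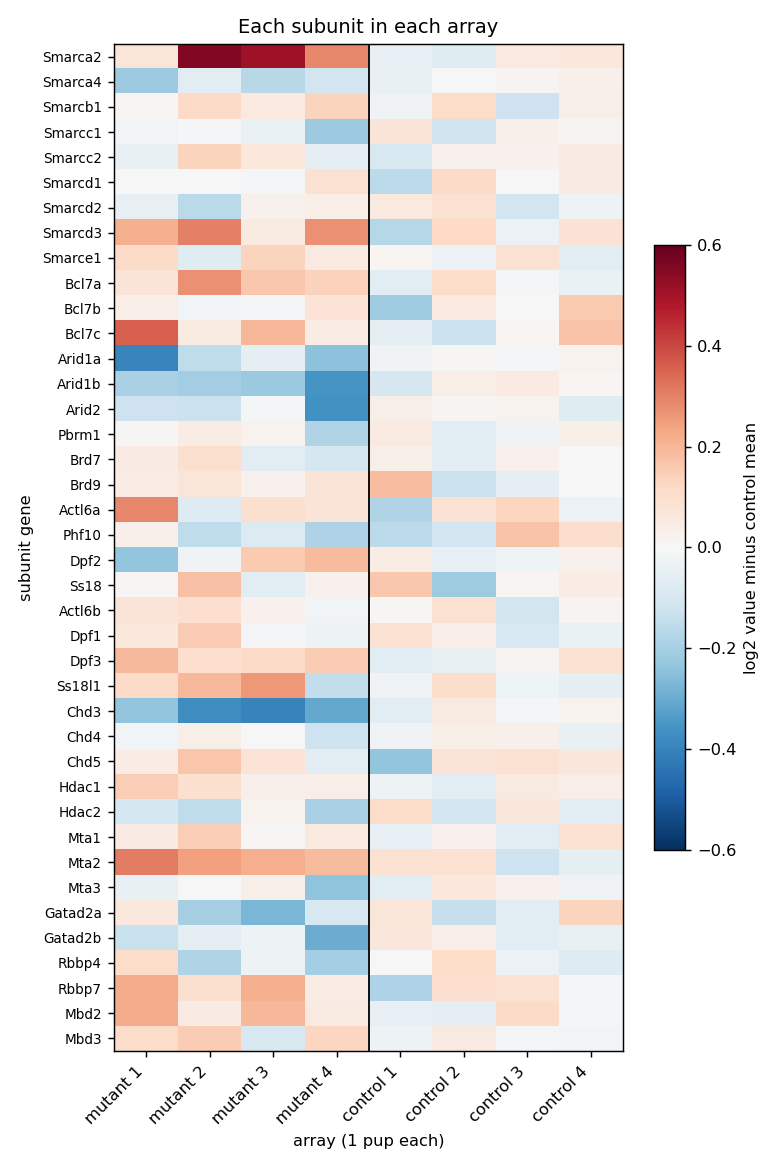
Each of the 40 subunit genes in each array as log2 value minus the control mean of that gene, mutants 1 to 4 left of controls 1 to 4. Smarca2 (up to 10.90 in mutant 2) and Mta2 are higher and Chd3, Arid1a and Arid1b lower in every mutant, while most other rows are pale.

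Genes of the neighbouring remodelling and repressor complexes, from lists covering associated BAF and NuRD factors, ISWI, INO80 with SRCAP and TIP60, other SNF2 and CHD ATPases, SIN3 and PRC2, were measured in the same fit. Of 84 genes, 1 fell, which was Bcl11a itself, 0 rose and 83 did not pass, with 9 at an unadjusted p under 0.05 by limma (10.7%, against 14% of all genes). The groups did not overlap for 5 of the 84 (5.95%, against 9.25% of all genes). The median log2 difference was -0.01 and the median absolute difference 0.05. By list, 0 of 11 ISWI genes, 0 of 29 INO80, SRCAP and TIP60 genes, 0 of 14 other ATPase genes, 0 of 12 SIN3 genes and 0 of 9 PRC2 genes were called, with 1, 1, 2, 0 and 3 at an unadjusted p under 0.05. The paralogue Bcl11b, which like Bcl11a is counted among dedicated BAF subunits, did not pass (log2 difference 0.05, adjusted p = 0.919). No test set these lists against the 40 subunits.

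**Figure D5:**
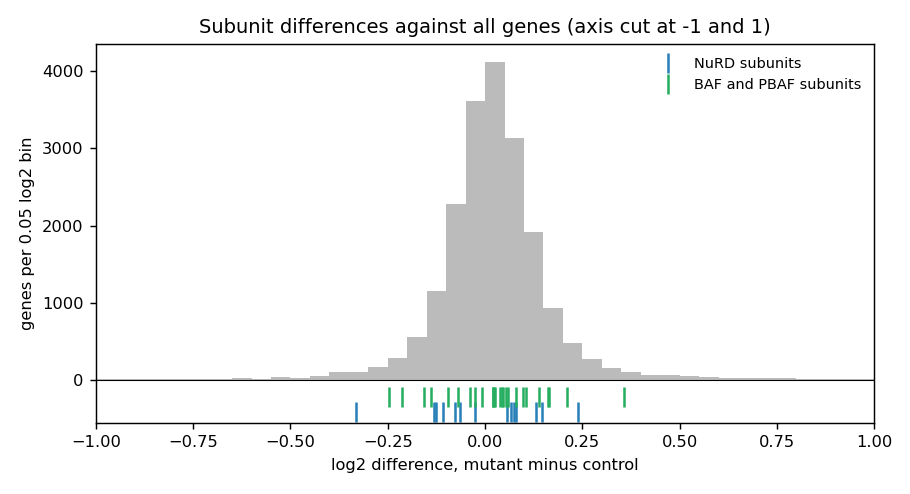
Number of genes per 0.05 of log2 difference, mutant minus control (19938 genes, axis cut at -1 and 1), with each NuRD and each BAF or PBAF subunit as a tick below. The ticks run from -0.33 (Chd3) to 0.36 (Smarca2) and most fall under the central peak.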

How the data were processed

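Arrays from 4 mutant and 4 control pups were analysed, 1 per pup. The deposited values, by their range, were taken as log2 expression per probe set. Per the labels and the series' design text, the authors used BRB-ArrayTools, while for background correction, normalisation and log base the method was not given in the sources used here. Of 35556 probe sets, 21789 had 1 gene symbol, 1621 several and 12146 none in the platform annotation; the brightest one-symbol probe set stood for each of 19938 genes (999 had several). Genotype was fitted with limma 3.58.1 in R 4.3.3 (prior df 6.91), with Benjamini-Hochberg adjustment over all genes and no filter, and the method was tested on simulated data. The number of arrays limits the precision. Groups came from the genotype labels. Replicate numbers were not treated as pairs. Alternatives changed the normalisation, filter, probe set rule, weights, variance model, covariates, threshold and arrays. Values per array are given for subunits that passed, did not overlap, were among the 5 largest differences in either direction, or are ATPases or exchanged subunits. The members and lists were chosen with earlier results of these data known. Promoter windows are from RefSeq (GRCm38.p6).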

Additional observations from a re-analysis of the deposited data

Results flagged for a closer look

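In 6 of 82 groups of 4 arrays, 1 array stood further from its group than Dixon's 95% limit allows; chance alone flags about 1 group in 20. Mutant 4 was the array concerned for 4 of them. It read 9.45 for Smarcc1, against 9.63 to 9.66 in the other mutants, and 9.78 for Pbrm1, against 9.97 to 10.01. It read 8.87 for Arid1b, against 9.0 to 9.03 in the other mutants, and 9.06 for Smarcd1, against 8.96 to 8.98, the only gene of the 4 for which it was high. Control 1 was the array concerned for the others, with 10.52 for Smarcc2, against 10.64 to 10.67 in the other controls, and 8.62 for Chd5, against 8.93 to 8.96.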

How the results depend on the processing

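Chd3 passed the test under every alternative run. The number of subunits called was 1 in the fit reported, 2 without the dimmest 30% of genes, 4 without the dimmest 50%, 3 with array weights, 3 with an intensity trend and robust variance, and 4 at an adjusted p under 0.10. The genes gained were Arid1b (adjusted p = 0.0469, 0.0332, 0.0289 and 0.0305 in the first 4 of these), Smarca2 (0.0432, 0.036 and 0.0271 without the dimmest 50%, with weights and with the trend) and Mta2 (0.0486 without the dimmest 50%). With the replicate number as a block, 2 subunits (Chd3, and Smarca2 at adjusted p = 0.0408), 987 of all genes and 2 genes of the neighbouring complexes were called; the deviations of same-numbered samples correlated at 0.109, 0.056, 0.295 and 0.149, of which 1 is not over the 0.1 asked of every pair, so they were not treated as pairs, although 3 of 4 mutants correlated best with the control of their own number. Leaving out each array in turn gave 1 to 2 subunits, with 2 without control 1 (Arid1b) or mutant 1 (Smarca2), and 584 to 814 of all genes. Over all genes 827 were called in the fit reported, 518 when every probe set was tested, and 249 without moderation. With inferred sex as a covariate, 680 of all genes and 1 subunit were called, and the Smarcd3 difference was 0.16. Of the neighbouring complexes, 2 genes were called without the dimmest 50% and at an adjusted p under 0.10, Bcl11a and Chd6 (0.32, adjusted p = 0.0464 and 0.0695), of which Chd6 was named after its values were seen. The filters leave fewer genes to adjust over; the cause of the other changes was not tested. Of 799 subunit values under the alternatives, 25 changed sign, all in 11 genes whose differences were at most 0.0639 in size. Scaling moved the median of all genes to 0.0043 or -0.0038.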
